A study of Rattus norvegicus with 15 samples.

Results

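The Slc30a genes encode the ZnT proteins, a family of transporters, most of which carry zinc out of the cytosol. Here 7 of them (Slc30a1, Slc30a2, Slc30a3, Slc30a4, Slc30a5, Slc30a7 and Slc30a9) were followed in mammary tumours of rats raised on different amounts of dietary zinc. They were found by matching the accession of each array probe to a rat gene symbol, which named 13832 genes in all. The 7 had 10 of the 41012 probes on the array, and 9 of them, covering all 7 genes, were among the 21015 probes bright enough to test.

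The 15 tumours came from female Sprague-Dawley rats, 5 for each early-life diet. Chow held 3 mg of zinc per kg (deficient), 35 mg/kg (adequate, the group called negative control in the labels) or 180 mg/kg (supplemented). Dams, 16 per group, ate it from gestation day 10 to weaning at day 21, and their daughters went on with it until day 51. All rats then received 50 mg/kg of DMBA (7,12-dimethylbenz[a]anthracene, a carcinogen that induces mammary tumours) by the intragastric route and ate adequate chow until day 180, so every tumour, controls included, was taken after a long period on the same diet. Tumours of the tubular/papillary type were used, and whether those of a diet were taken from different rats or litters is not in the labels, so p-values measure only the spread between these samples, which may be technical. A free-text label speaks of mammary gland at day 21, whereas the other labels give tumours at day 180, which were followed.

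Most ZnT proteins lower cytosolic zinc by moving it across the plasma membrane or into organelles and vesicles. ZnT1, from Slc30a1, sits at the plasma membrane, and its gene is a textbook target of the zinc-sensing transcription factor MTF-1, which binds metal response elements. ZnT2 and ZnT4, from Slc30a2 and Slc30a4, are known in the mammary gland for moving zinc into secretory vesicles for milk. ZnT5 and ZnT7 supply the early secretory pathway and Golgi, ZnT3 loads synaptic vesicles in neurons, and ZnT9 is a mitochondrial transporter.

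The sequence just before the start of Slc30a1 and of Slc30a2 is shown with matches to the metal response element, the letter pattern that MTF-1 binds. Each stretch holds the 250 bases before the annotated start (RefSeq, build GRCr8, plus strand). Capitals mark matches on either strand to the core of the element, searched as TGCACNC and TGCGCNC. The regions are chr13:106021769-106022018 for Slc30a1 and chr5:151843201-151843450 for Slc30a2.
Slc30a1: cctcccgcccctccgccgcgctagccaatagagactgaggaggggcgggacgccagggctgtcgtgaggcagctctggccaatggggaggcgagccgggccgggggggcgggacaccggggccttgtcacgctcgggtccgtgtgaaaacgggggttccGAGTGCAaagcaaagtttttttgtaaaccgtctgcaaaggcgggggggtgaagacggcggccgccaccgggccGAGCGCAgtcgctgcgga
Slc30a2: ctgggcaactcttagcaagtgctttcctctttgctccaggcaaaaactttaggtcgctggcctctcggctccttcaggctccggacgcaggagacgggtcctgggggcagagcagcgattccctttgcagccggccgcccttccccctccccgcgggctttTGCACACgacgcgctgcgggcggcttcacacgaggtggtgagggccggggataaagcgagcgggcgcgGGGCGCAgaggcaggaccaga
Slc30a1 held 2 matches, at bases 91 to 85 and 18 to 12 before the start, and Slc30a2 held 2, at bases 89 to 83 and 21 to 15. In each gene the match farther from the start was to TGCACNC and the nearer one to TGCGCNC. Slc30a4 held 2 matches to TGCGCNC, and in Slc30a5 the 2 matches to TGCGCNC lay on opposite strands and overlapped by 6 bases. The windows of Slc30a3 and Slc30a9 and a second window of Slc30a2 held none. Of 33469 such windows over all genes, 20.6% held at least 1 match and 4.90% held 2 or more. A match describes letters only, and nothing about MTF-1 binding was measured.

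Each level is the log2 of a probe's processed signal over the 75th percentile of its own array, so a probe at 0 is as bright as that percentile. Different probes bind with different strength, so levels are compared between tumours for 1 probe and never between genes. "Well above background" is the scanner software's own mark. Every one of the 4 slides carried all 3 diets. Arrays differed in brightness: the 75th percentile ran from 50.7 to 177 and the number of spots well above background from 13854 to 24009 of 43379. Of 9 luminal epithelial markers 8 were well above background on all 15 arrays, with list means from 4.06 to 4.55, so luminal epithelial RNA was readily measured. Fibroblast markers (5 of 6 on all arrays) and macrophage markers (3 of 6) were present as well. In whole tumour RNA, fewer cells of a type and less RNA per cell cannot be told apart.

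Slc30a1, Slc30a3 and Slc30a9 were well above background in all 15 tumours. So were 2 of the 3 Slc30a5 probes, the brightest one reaching 14. Slc30a7 was detected in this sense in 14 tumours, Slc30a4 in 9 and Slc30a2 in 6. A second Slc30a2 probe, designed on another transcript accession, was so in 0, with processed signals of 5.35 to 7.76. Probes of 2 further family members, Slc30a8 and Slc30a10, were also well above background in 0 tumours.

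**Figure D1:**
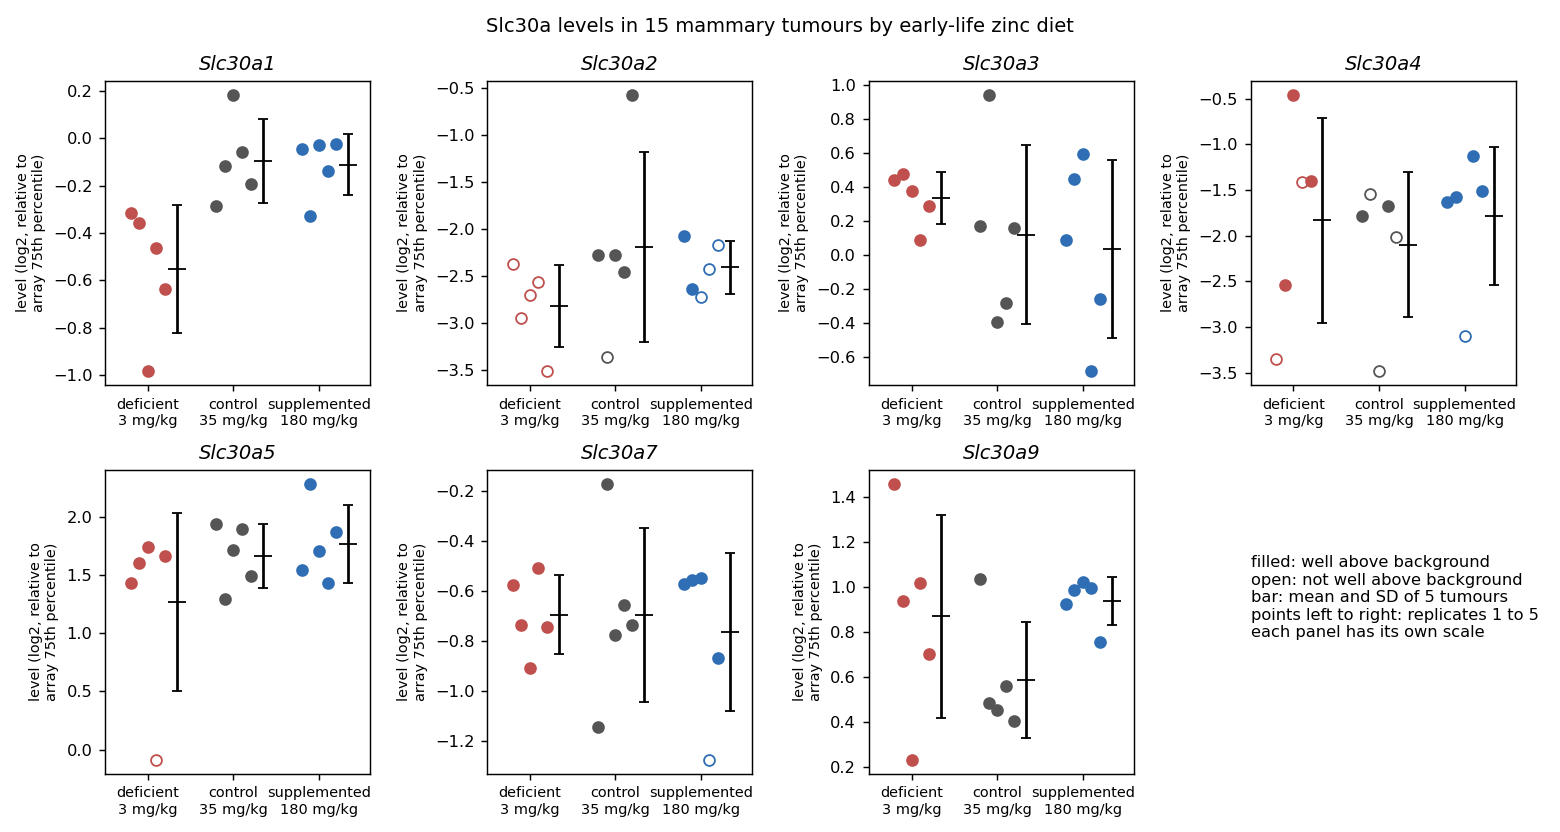
Level of each Slc30a gene (y axis, log2 over the array's 75th percentile, each panel with its own scale) in every tumour by diet (x axis). Filled points are well above background, open points are not, and the bar gives mean and SD of 5 tumours. Slc30a1 is the panel in which all 5 deficient tumours, the highest at -0.31, lie below all 5 controls, the lowest at -0.29.

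Slc30a1, the plasma membrane exporter, was lower in tumours of zinc-deficient rats than in controls on this scale, without passing the test over all probes. Its levels in deficient replicates 1 to 5 were -0.31, -0.36, -0.98, -0.46 and -0.64. In control replicates 1 to 5 they were -0.29, -0.12, 0.18, -0.06 and -0.19. In supplemented replicates 1 to 5 they were -0.05, -0.33, -0.03, -0.14 and -0.03. All 5 deficient tumours lay below all 5 controls, though the closest pair, both on slide 1, differed by only 0.03, and 24 of 25 pairs of a supplemented and a deficient tumour had the supplemented one higher. Supplemented tumours and controls overlapped.

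The deficient mean was -0.55 ± 0.27 (SD, n = 5), the control mean -0.09 ± 0.18 and the supplemented mean -0.11 ± 0.13. The log2 difference was -0.46 for deficient minus control (95% interval -0.79 to -0.12, a ratio of 0.729), and limma's adjusted p over the 21015 probes was 0.987. For supplemented minus deficient it was 0.44 (0.10 to 0.77, limma adjusted p = 0.675). Supplemented minus control gave -0.02, with an interval from -0.35 to 0.32. Fitted as a line over dietary zinc, Slc30a1 had a slope of 0.08 log2 units per doubling of zinc in the chow (0.02 to 0.14), which did not pass either (limma adjusted p = 0.584). In order of level the deficient diet stood lowest, and the control and supplemented diets did not differ beyond their spread.

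Within the 4 slides, deficient minus control was -0.03, -0.24, -0.91 and -0.51, negative on each. As every deficient tumour lay below every control, this sign was fixed on any slide and adds no separate support. Supplemented minus deficient was 0.27, 0.18, 0.59 and 0.61, positive on each. No deficient tumour lay above a supplemented one of its own slide, so this sign too follows from the levels above. Supplemented minus control had no common sign, at 0.24, -0.06, -0.32 and 0.10. The size of the deficient difference also varied with 1 tumour, deficient replicate 3, without which it was -0.35.

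**Figure D2:**
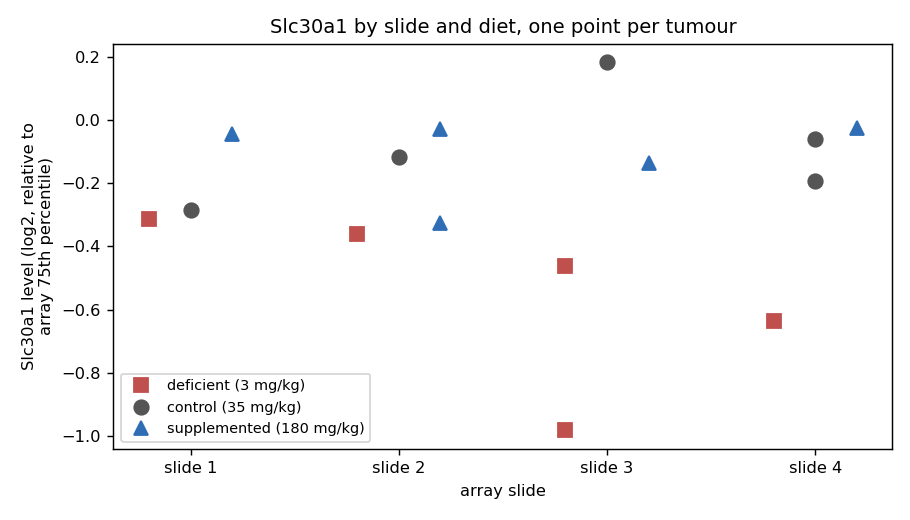
Slc30a1 level (y axis, log2 over the array's 75th percentile) by array slide (x axis), 1 point per tumour, with squares for deficient, circles for control and triangles for supplemented. The deficient tumours are the lowest on each slide, by a margin of 0.03 on slide 1 and with the lowest value, -0.98, on slide 3. On slide 2 the margin is also thin, with deficient replicate 2 at -0.36 and supplemented replicate 2 at -0.33.

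The separation of Slc30a1 differed between ways of processing the signal, which change more than 1 step at a time. With normexp background correction (offset 50) of the median spot signal, the deficient minus control difference was -0.12 and deficient tumours were lower in 18 of 25 pairs. In the authors' deposited log2 values it was -0.10, with 20 of 25 pairs. Adding 50 to the processed signal before taking log2 gave -0.28 with 24 of 25 pairs, and normexp with no offset gave -0.17 with 19 of 25. The excess of supplemented over deficient tumours was 0.16 with normexp and 0.16 in the deposited log2 values. The sign was thus the same on all 5 scales, the size was not, and only on the first did the diets not overlap.

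**Figure D3:**
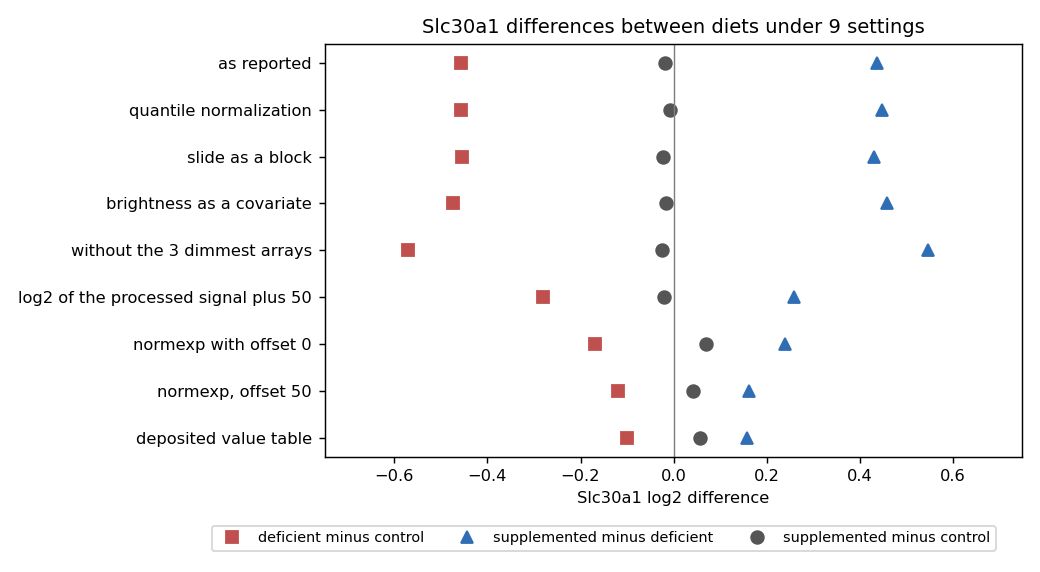
Slc30a1 log2 difference (x axis) for the 3 pairs of diets under 9 settings (y axis, the reported one on top). Deficient minus control stays left of 0 and supplemented minus deficient right of 0 in all 9, between -0.57 and -0.10 and between 0.16 and 0.55, while supplemented minus control stays within 0.07 of 0. Leaving out the 3 dimmest arrays could not turn the sign of deficient minus control, as those levels do not overlap.

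Slc30a1 alone among the 7 genes had deficient and control levels that did not overlap; over all probes with complete values this held for 0.39%. In supplemented against control and supplemented against deficient tumours it held for 0 of the 7 genes, and for 0.353% and 1.5% of all probes. By limma, 0 of the 7 genes passed at an adjusted p of 0.05 in any pair of diets or over the slope of zinc, where 0% of the 21015 probes did; at an unadjusted p under 0.05 there were 1 of 7 (Slc30a1) for deficient minus control, 0 for supplemented minus control and 1 (Slc30a1) for supplemented minus deficient, against 822, 415 and 1481 probes in all. The F test over the 3 diets also called 0% of probes; by limma, 847 probes had an unadjusted p under 0.05 in it, and 1617 in the slope.

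**Figure D4:**
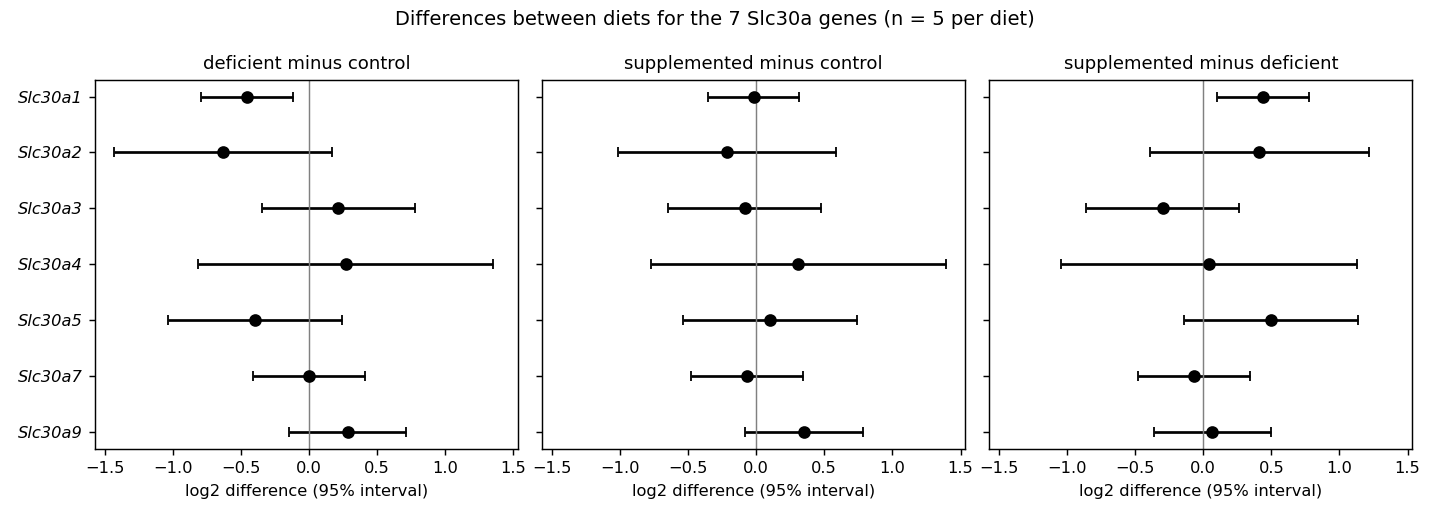
Log2 difference between diets (x axis) with its 95% interval for each Slc30a gene (y axis), n = 5 tumours per diet, 1 panel per pair of diets. Slc30a1 is the gene whose interval leaves out 0, in the 2 panels that involve the deficient diet; before adjustment over all probes, no other interval in the plot does.

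The genes that carry zinc towards milk were dim, and their levels are partly background. Slc30a2 had levels of -2.37, -2.94, -2.70, -2.56 and -3.51 in deficient replicates 1 to 5, none well above background. In controls it stood at -2.28, -3.36, -2.28, -2.45 and -0.57, well above background in all but replicate 2. In supplemented tumours it stood at -2.07, -2.63, -2.73, -2.43 and -2.17, well above background in replicates 1 and 2. The number of detected tumours was thus 0, 4 and 2 by diet, and control replicate 5 was far above every other tumour. These counts do not follow the levels alone. Control replicate 4 (-2.45) and supplemented replicate 2 (-2.63) were detected, whereas deficient replicates 1 (-2.37) and 4 (-2.56) were not. Deficient replicates 1 and 4 and control replicate 2 were on the 3 dimmest arrays, and the part of brightness in the counts was not tested.

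The means of Slc30a2 were -2.82 ± 0.44, -2.19 ± 1.01 and -2.40 ± 0.28 (SD, n = 5 each) in deficient, control and supplemented tumours. Since no deficient tumour was well above background, the deficient level is only bounded from above. The detection limit on those arrays averaged above the control mean, so no minimum fold can be given. The fitted difference of deficient minus control was -0.63 (-1.43 to 0.17, limma adjusted p = 0.987), and -0.23 without control replicate 5.

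Slc30a4 varied more than most probes: its SD over the 15 tumours, 0.85, exceeded that of 94.9% of tested probes. The Slc30a8 probe, well above background in 0 tumours, also had a high SD, 0.61, above that of 82.0% of tested probes. The part of background in the spread of Slc30a4 was not tested. In deficient replicates 1 to 5 Slc30a4 stood at -3.35, -2.54, -0.46, -1.41 and -1.40. In controls the levels were -1.79, -1.54, -3.48, -1.67 and -2.01. In supplemented tumours they were -1.63, -1.58, -3.09, -1.13 and -1.51. Each diet held at least 1 tumour near -3 or below, not well above background, beside others near -1.5. Some of the higher readings were not well above background either: deficient replicate 4 (-1.41) and control replicates 2 (-1.54) and 5 (-2.01). Slc30a4 was well above background in 3 deficient, 2 control and 4 supplemented tumours. The differences of 0.27 (deficient minus control, -0.82 to 1.35), 0.31 (supplemented minus control, -0.77 to 1.39) and 0.04 (supplemented minus deficient, -1.04 to 1.13) had wide intervals, and the first was -0.08 without control replicate 3 and -0.08 without deficient replicate 3.

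Because ZnT4 serves milk, Slc30a4 was set against the mean level of 13 milk protein and secretory genes, caseins and alpha-lactalbumin among them, which ranged from -1.28 to 2.27 between tumours. Of the 13 genes, 6 were well above background on all arrays, and Slc30a4 was so in 9 tumours, so both sides are partly background. Pearson's r was 0.18 (permutation p = 0.524, 100000 resamples, two-sided) and Spearman's rho 0.18 (permutation p = 0.522) over 15 tumours, the only relation tested in this family. Without the 2 tumours farthest from the median of the milk genes r was -0.25, with slide means removed it was 0.24, with normexp 0.30, and without the 3 dimmest arrays 0.45 (permutation p = 0.138). No setting gave a permutation p under 0.05, and the sign was not the same in all of them. Slc30a2 was not set against milk genes because it was well above background in only 6 tumours.

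Slc30a5 and Slc30a7, which serve the early secretory pathway, were readily detected. The brightest Slc30a5 probe read 1.43, 1.60, 1.74, -0.09 and 1.66 in deficient replicates 1 to 5. Controls read 1.94, 1.29, 1.71, 1.89 and 1.49, and supplemented tumours 1.54, 2.28, 1.71, 1.43 and 1.86. Deficient replicate 4 was the single tumour in which this probe was not well above background. The means were 1.27 ± 0.77, 1.66 ± 0.27 and 1.76 ± 0.33 (SD, n = 5 each), and the difference of deficient minus control, -0.40 (-1.03 to 0.24), was -0.06 without that tumour.

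The 3 Slc30a5 probes, all designed on the same transcript accession, differed in sign between diets. For deficient minus control the second probe, A_43_P10200, differed by 0.27 (-0.13 to 0.68), and the third, A_44_P248222, by -0.24 (-0.57 to 0.10). The second ranged from -0.20 to 0.78 between tumours, and the third from -1.20 to -0.31. For supplemented minus deficient the probes differed, in the same order from the brightest on, by 0.50, -0.07 and 0.37, the last with an interval of 0.03 to 0.70 and a limma adjusted p of 0.703. For the brightest probe this difference was 0.16 without deficient replicate 4 and 0.10 without the 3 dimmest arrays. Across the 15 tumours Pearson's r between pairs of these probes was -0.14, -0.14 and -0.10 (permutation p = 0.636, 0.644 and 0.695; adjusted p = 0.859 each over 21 pairs of Slc30a probes). For the second and the brightest probe the value rests on single tumours: r was 0.60 without the 2 tumours farthest from the median of the second probe, and Spearman's rho over all 15 was 0.34 (permutation p = 0.216, adjusted p = 0.566). In deficient replicate 4, where the brightest probe was lowest, the second probe was at its highest, 0.78. No single direction can therefore be given for Slc30a5.

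**Figure D5:**
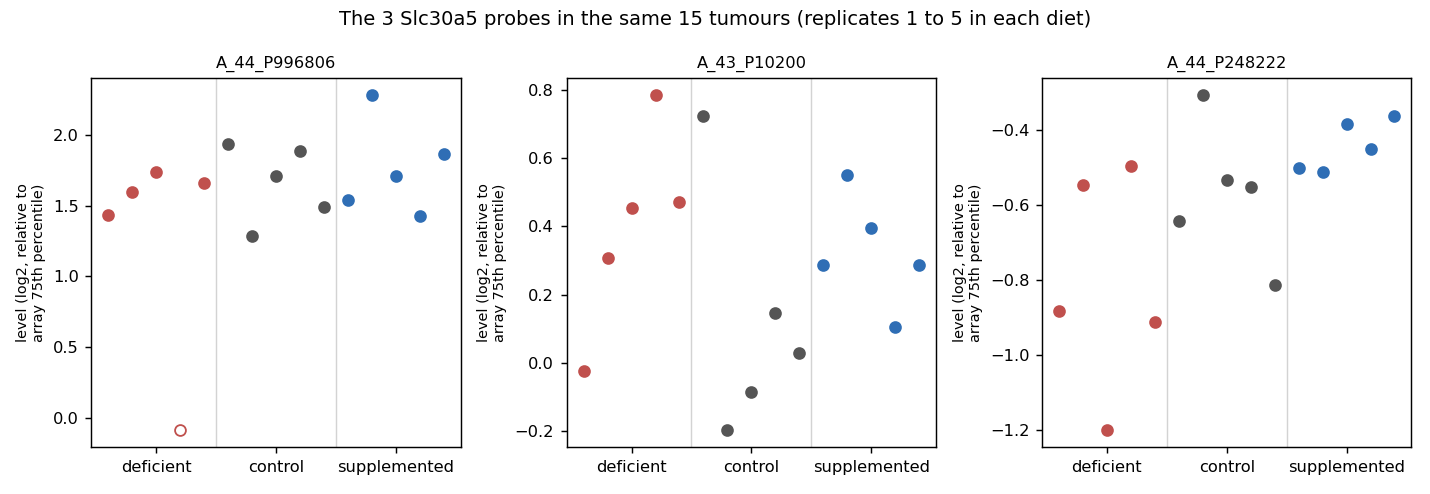
Level of each of the 3 Slc30a5 probes (y axis, log2 over the array's 75th percentile, each panel with its own scale) in the same 15 tumours (x axis, replicates 1 to 5 within each diet); the open point is not well above background. Deficient replicate 4 is lowest on the first probe (-0.09) and highest on the second (0.78).

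Slc30a7 stood at -0.57, -0.74, -0.91, -0.51 and -0.75 in deficient tumours. Controls were at -1.15, -0.17, -0.77, -0.65 and -0.74, and supplemented tumours at -0.57, -0.56, -0.55, -1.28 and -0.87. The diets overlapped throughout, with means of -0.70 ± 0.16, -0.70 ± 0.35 and -0.76 ± 0.32 (SD, n = 5 each). Deficient minus control was 0.00, with an interval from -0.41 to 0.41.

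Slc30a9, the mitochondrial member, was at 1.46, 0.94, 0.23, 1.02 and 0.70 in deficient tumours. Controls were at 1.03, 0.48, 0.45, 0.56 and 0.40, and supplemented tumours at 0.92, 0.99, 1.02, 0.99 and 0.76. Of the controls, 4 lay close together below all 5 supplemented tumours, and control replicate 1 lay above them all. The means were 0.87 ± 0.45, 0.59 ± 0.26 and 0.94 ± 0.11 (SD, n = 5 each). Supplemented minus control was 0.35 (-0.08 to 0.78) and was higher in 20 of 25 pairs; with normexp it was 0.01. Deficient minus control was 0.28 (-0.15 to 0.71), positive within each of the 4 slides (0.17 to 0.46). It was 0.12 with normexp, 0.14 without deficient replicate 1, 0.44 without deficient replicate 3 and 0.011 without the 3 dimmest arrays.

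Slc30a3, known from neurons, was nonetheless well above background in every tumour by its only probe, with no other probe of the gene to compare. It stood at 0.44, 0.47, 0.38, 0.09 and 0.29 in deficient tumours. Controls were at 0.17, 0.94, -0.39, -0.28 and 0.16, and supplemented tumours at 0.09, 0.45, 0.59, -0.68 and -0.26. Deficient tumours lay close together, with an SD of 0.15 against 0.53 and 0.52 in the other diets, a difference in spread that was not tested. Deficient minus control was 0.22 (-0.35 to 0.78) and supplemented minus deficient -0.30 (-0.86 to 0.26). The first was 0.087 without control replicate 3, 0.12 without control replicate 4, 0.42 without control replicate 2 and 0.47 without the 3 dimmest arrays. The second was -0.12 without supplemented replicate 4 and -0.044 with normexp.

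The members showed no common sign on this scale, though several of the signs are not settled. Of the 7, 4 had a positive and 3 a negative difference for deficient minus control, with a median of 0.00, against a median of -0.00 over all probes. Here Slc30a7 counts as positive at 0.0012. Slc30a5 counts as negative by its brightest probe alone, and Slc30a2 does so although no deficient tumour was well above background. For supplemented minus control 3 were positive and 4 negative (median -0.02), and for supplemented minus deficient 5 and 2 (median 0.07, all probes -0.00). Among the 21 pairs of the 7 probes that were well above background on at least 14 arrays, 10 had a positive correlation over the tumours. These probes are not the 7 genes: they include 3 of Slc30a5, whose pairs with each other are counted, and none of Slc30a2 or Slc30a4. The range of Pearson's r was -0.50 to 0.76. The highest r, 0.76, joined Slc30a1 and the third Slc30a5 probe, A_44_P248222 (permutation p = 0.00189, adjusted p = 0.0397 over 21 pairs; Spearman's rho 0.59, permutation p = 0.0233, adjusted p = 0.357). It was 0.82 with slide means removed and 0.34 without the 2 tumours farthest from the median of Slc30a1, so it rests on those tumours. The other pairs had adjusted p of at least 0.0841 by permutation.

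The genes whose pattern over the 15 tumours was most like that of each member seen in all of them were searched among 5358 named genes, as a description. For Slc30a1 they were Septin9 (r = 0.88), which encodes a septin of the cytoskeleton, Map1lc3a (0.87), which encodes an LC3 protein of autophagosomes, and Map2k2 (0.83), the kinase MEK2. For Slc30a9 they were Fos (0.88), an immediate early transcription factor, Smarcad1 (0.88), a chromatin remodeller, and Zfp800 (0.87), a zinc finger protein. For Slc30a3 they were Or8w1b (0.80), an olfactory receptor, Rpl37al2 (0.80) and Slc32a1 (0.78), the vesicular transporter of inhibitory amino acids. These values share arrays and their brightness, and a search over so many genes finds high values in any case.

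The rest of the zinc-handling genes gave the setting. Of 19 listed importers of the Slc39a family, metallothioneins and the sensor gene Mtf1, 13 were tested and 0 passed limma's test in any pair of diets (lowest adjusted p = 0.696, in supplemented minus deficient). Of the 13, 7 were higher and 6 lower for deficient minus control, with a median of 0.09 and a range from -0.38 (the importer Slc39a6) to 0.73 (Mt2A). Mtf1 had means of -0.89, -1.54 and -1.90 in deficient, control and supplemented tumours. Its supplemented minus deficient difference of -1.01 did not pass (limma adjusted p = 0.746). The metallothionein gene Mt1 was instead lowest in controls, with means of 4.92, 4.24 and 4.93 in the same order. Red cell markers were not tested between diets, and their ranges overlapped between deficient tumours and controls: the mean of 4 measured genes of 5 listed, 2 of them well above background on all arrays, ranged from 0.85 to 3.02 in deficient tumours, -1.39 to 1.35 in controls and -1.16 to -0.19 with supplementation. Their part in the Slc30a1 difference was not tested.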

How the data were processed

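RNA of 15 tumours (200 ng each) was hybridised to single-colour (Cy3) Agilent rat arrays, per the labels' protocols. Per the file headers, Agilent Feature Extraction 11.5.1.1 made the deposited spot intensity values, which are linear and background-subtracted; the submitters' processing notes give version 15.5. A second deposited table holds the authors' log2 values for 30002 probes; how it was normalized is not stated in the labels, the median per array was 7.09 to 7.10, and it was used only for comparison.

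The processed signal was divided by its array's 75th percentile and log2 taken. Spots that the scanner software marked as outliers were set to missing, and the 263 probes with several spots were averaged. Probes well above background (in at least 50% of their spots) on at least 5 of 15 arrays were tested (21015). Accessions, without version, were matched to RefSeq symbols of assembly GRCr8; 17502 probes (42.7%) matched 1 gene each and 0 matched several. The array was designed on another build, so no probe coordinates are given. Promoter windows came from RefSeq, build GRCr8, for 6 of the 7 genes.

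For each probe, limma 3.58.1 (R 4.3.3) fitted a mean per diet with moderated variances and gave two-sided p-values, adjusted by Benjamini-Hochberg over all tested probes (threshold 0.05). The fit was tested on simulated data. A gene with several probes is shown by its brightest tested probe. Precision is set by having 5 arrays per diet: a 95% interval reached 0.51 log2 units to each side for the median probe. No spot was saturated (0). Every member was named, with the 3 genes most alike for each member seen on all arrays. Members, lists and alternatives were chosen with earlier results of these data known. The pairwise correlations and 2 alternatives (adding 50 to the processed signal, and normexp with offset 0) were chosen after seeing the data. Normexp used the median spot signal, since the files analysed hold no mean signal. A comparison of protein sequences was planned and not made here.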

Additional observations from a re-analysis of the deposited data

Results flagged for a closer look

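In 4 of 21 groups of 5 tumours (7 genes in 3 diets), 1 tumour stood apart from the rest by its gap to the nearest one relative to the whole range; chance gives about 1 in 20 groups. Slc30a4 was -3.48 in control replicate 3, where the nearest control was at -2.01, and -3.09 in supplemented replicate 3, where the nearest was at -1.63; neither tumour was well above background for this probe. The brightest Slc30a5 probe was -0.09 in deficient replicate 4, against 1.43 in the nearest deficient tumour, on 1 of the 3 dimmest arrays, while the other probes of the gene read 0.78 and -0.49 there, both well above background. Slc30a9 was 1.03 in control replicate 1, against 0.56 in the nearest control.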

How the results depend on the processing

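The 3 pairwise tests, the F test and the slope over zinc called 0 probes by limma in every alternative, with 3 exceptions: normexp with offset 0 called 1 probe for deficient minus control, and without supplemented replicate 1 limma called 1 probe each for supplemented minus deficient and for the slope. Leaving out single arrays thus gave 0 to 1 calls. For the 7 genes, 0 of 579 alternative values passed and 47 had the opposite sign. Many of the 579 could not change sign, so the count of 47 understates how readily signs turn. Leaving out an array of the diet not compared, testing without the filter or blocking on replicate number returns the same difference. Of 21 differences, 9 never changed sign, among them deficient minus control and supplemented minus deficient of Slc30a1. With normexp (offset 50) the opposite signs were, for supplemented minus control, 0.042 (Slc30a1), 0.35 (Slc30a2), 0.16 (Slc30a3), -0.19 (Slc30a5) and 0.24 (Slc30a7), and for supplemented minus deficient 0.20 (Slc30a7) and -0.11 (Slc30a9). With offset 0 they were 0.071, 0.65, 0.21, -0.27 and 0.38 for the same 5 genes, -0.015 for Slc30a9, and 0.35 (Slc30a7) and -0.21 (Slc30a9). Quantile normalization gave -0.020, the deposited values -0.040 and brightness as a covariate -0.062 for deficient minus control of Slc30a7; the deposited values gave 0.057 for supplemented minus control of Slc30a1. Without the 3 dimmest arrays, supplemented minus control was 0.12 (Slc30a3) and 0.065 (Slc30a7), and supplemented minus deficient -0.32 (Slc30a4) and 0.034 (Slc30a7). Adding 50 to the signal gave -0.14 for supplemented minus deficient of Slc30a4. The cause was not tested. The correlation of Slc30a4 with milk genes was -0.25 without the 2 farthest tumours and 0.45 without the 3 dimmest arrays.

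Leaving out single arrays turned the sign of these differences, with ranges for supplemented minus control of -0.066 to 0.051 (Slc30a1), -0.51 to 0.19 (Slc30a2), -0.22 to 0.12 (Slc30a3), -0.036 to 0.64 (Slc30a4), -0.029 to 0.19 (Slc30a5) and -0.18 to 0.065 (Slc30a7), for deficient minus control of -0.078 to 0.65 (Slc30a4) and -0.11 to 0.13 (Slc30a7), and for supplemented minus deficient of -0.34 to 0.39 (Slc30a4), -0.12 to 0.060 (Slc30a7) and -0.092 to 0.22 (Slc30a9). Same-numbered tumours did not deviate together (correlations of -0.28 to 0.22, over 0.1 in 6 of 15 pairs; 4 of 15 arrays correlated best with their own number), so the numbers were not taken as pairs, although tumours numbered 1, 2 and 5 each shared a slide across diets. With slide as a block Slc30a1 differed by -0.45 (deficient minus control) and 0.43 (supplemented minus deficient). With the replicate number as a block these were -0.46 and 0.44, and limma called 0 probes in each pair of diets. Signal over background limits Slc30a2 and Slc30a4.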
